A study of Mus musculus with 19 samples.

Results

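Genes tied to suppressive tumour macrophages, 9 in number, were followed across the cells of B16-F10 tumours: Spp1, Inhba, Arg1, Mmp12, Trem2, Mrc1, Apoe, Fn1 and Pdpn. They were chosen by name, with earlier results of these data known, as 9 of the 33696 genes in the single-cell matrices. All 9 were found there. B16-F10 is a melanoma line of C57BL/6 mice. One tumour group grew from cells carrying a scrambled control (SCR; the library itself is named WT) and the other from cells with a Mettl5 knockout (KO). METTL5 methylates the RNA of the small ribosomal subunit. In this single-cell experiment the knockout is in the injected tumour cells, whereas the genes below were read mostly in cells of the host. Tumours were dissociated, live CD45-positive cells were sorted, and libraries were made on the 10x Genomics 5′ platform, 1 per genotype. The labels give neither the number, age or sex of the tumour-bearing mice, nor the time of collection for these libraries, nor whether tumours were pooled or the knockout is a single clone. Cultured SCR and KO cells (2 libraries each of input RNA and of ribosome footprints) served to show what the tumour cells make.

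Tumour-associated macrophages arise mostly from blood monocytes and take on states that depend on oxygen, lipid and cytokine signals. Osteopontin, encoded by Spp1, is a secreted protein that binds integrins and CD44, and macrophages rich in it are often found in poorly oxygenated tumour regions. Arginase 1 removes arginine that T cells need, activin A (a dimer of the Inhba product) signals through activin receptors, and TREM2 is a lipid-sensing receptor that signals through TYROBP.

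With at least 500 UMIs (unique molecular identifiers, 1 per captured RNA molecule), at least 300 genes and under 10% mitochondrial UMIs, 8239 of 8341 SCR and 8361 of 8454 KO barcodes were kept. The median was 8906 UMIs per cell in SCR and 8035 in KO, and 115 barcodes occurred among the kept cells of both libraries. Cells were clustered without the 9 genes, so that no cluster owes its place to them, and 24 clusters resulted. Of these, 9 were macrophage-like, and each is called here by leading genes, and 2 were monocyte-like (Ly6c2 and Chil3 among the leading genes of both). The sort was not pure: 161 SCR and 197 KO cells were melanoma-like (Pmel, Dct, Mlana) and 19 in each library fibroblast-like. An unnamed cluster led by Igfbp3, Igfbp7 and Col4a1 (37 SCR and 75 KO cells) held 6 endothelial markers, each in over 10% of its cells. In that cluster 6 melanoma and 10 macrophage markers passed the same cut. A cluster led by T-cell genes also carried macrophage genes (311 SCR and 439 KO cells); it was kept apart from both classes. RNA of Mettl5 itself was lower in KO but not lost, at 9.47 and 9.61 CPM (counts scaled to a total of 1000000) in cultured SCR and 6.22 and 6.15 in KO libraries (edgeR adjusted p = 0.0284). Its footprints were at 14.6 and 13.2 CPM against 11.5 and 12.0, which did not pass (log2 fold change -0.35, edgeR adjusted p = 0.112), and its RNA was at 31.7 (27.4 to 36.5) and 22.1 (18.7 to 25.9) in the melanoma-like cells. With 1 library per genotype nothing below could be tested between genotypes in the tumour cells, and all intervals (95%) cover counting error only. Levels are given as UMIs of a gene per 1000000 UMIs of the cells in question (CPM, a scale that does not correct for gene length). A gene is called past the fold where the KO to SCR ratio of its CPM was 1.5-fold or more in either direction, among genes with at least 100 UMIs over both libraries.

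Promoter windows were available for 7 of the 9 genes. Those of Spp1, Inhba and Pdpn are shown, since among these 7 genes they had the lowest KO to SCR ratio in macrophage-like cells. Each is the 250 bases before a RefSeq start site on build GRCm38.p6, on the gene's strand, and for Spp1 the upstream of 2 listed sites. Capitals mark matches on either strand to ACGTG or GCGTG (the core letters of the hypoxia response element), GAGGAAG (a purine-rich motif of the kind the macrophage factor PU.1 binds) or TGANTCA (the AP-1 motif). The windows are chr5:104434861-104435110 on the plus strand for Spp1, chr13:16011601-16011850 on the plus strand for Inhba and chr4:143299565-143299814 on the minus strand for Pdpn.
Spp1: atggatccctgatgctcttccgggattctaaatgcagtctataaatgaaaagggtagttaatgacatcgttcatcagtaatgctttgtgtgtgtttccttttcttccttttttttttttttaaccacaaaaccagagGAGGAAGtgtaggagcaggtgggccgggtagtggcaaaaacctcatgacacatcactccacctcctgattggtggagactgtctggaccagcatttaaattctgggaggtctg
Inhba: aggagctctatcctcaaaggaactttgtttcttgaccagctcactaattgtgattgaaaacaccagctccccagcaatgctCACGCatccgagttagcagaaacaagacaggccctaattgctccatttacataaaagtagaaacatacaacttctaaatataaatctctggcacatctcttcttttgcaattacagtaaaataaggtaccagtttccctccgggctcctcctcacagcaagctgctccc
Pdpn: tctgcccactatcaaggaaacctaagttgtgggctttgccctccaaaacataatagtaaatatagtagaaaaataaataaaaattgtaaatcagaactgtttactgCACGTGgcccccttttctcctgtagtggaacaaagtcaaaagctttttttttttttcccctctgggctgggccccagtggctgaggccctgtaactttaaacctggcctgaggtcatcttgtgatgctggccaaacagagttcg
The Spp1 window held GAGGAAG beginning 113 bases before the start site, and no ACGTG or GCGTG. The Inhba window held GCGTG on the other strand, 169 bases before the start. In Pdpn 2 overlapping ACGTG matches, 1 on each strand, formed the palindrome 144 bases before the start. Such short matches are common: ACGTG was found in 16.6%, GCGTG in 28.2%, GAGGAAG in 10.6% and TGANTCA in 6.75% of 32851 windows of the same length. Trem2, which hardly differed between the libraries, also held GCGTG, together with GAGGAAG and TGANTCA. Matches describe the letters only.

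In the 5220 SCR and 4690 KO macrophage-like cells, Inhba, Spp1, Pdpn and Arg1 were lower in the KO library by 1.5-fold or more, and no member was higher by as much. These 4 of 9 stand beside 1.83% of 12383 genes that were lower and 1.04% that were higher. Since the members were chosen with earlier results of these data known, the shares are descriptions and no test. The other 5 ranged from Fn1, just inside the fold, to Mrc1 and Trem2, which were closest to the SCR level. The median log2 ratio of the 9 genes was -0.56, and that of all genes was 0.04.

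Spp1 was read at 1233 CPM in SCR and 561 in KO, a ratio of 0.455 (0.449 to 0.461). A UMI of Spp1 was found in 57.3% of SCR and 42.9% of KO cells. With each cell thinned to 2000 UMIs (4929 SCR and 4396 KO cells, shallower ones left out), the shares were 40.3% and 26.3%, and the cells with a UMI held 6.80 and 5.17 UMIs on average. Both the share of cells and the amount in positive cells were thus lower in KO. Inhba was at 75.6 CPM in SCR and 24.4 in KO (ratio 0.323, interval 0.303 to 0.343), found in 8.60% and 3.32% of thinned cells (13.8% and 5.80% unthinned). Its positive cells held 3.23 and 2.94 UMIs, so that the share of cells differed far more than the amount per positive cell.

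Among the enzymes, Arg1 was at 224 and 124 CPM (ratio 0.554, interval 0.538 to 0.570). It was found in 18.2% of thinned SCR and 11.03% of thinned KO cells (26.1% and 17.1% unthinned), with 3.72 and 3.38 UMIs per positive cell. Mmp12, the macrophage elastase, was at 515 and 406 CPM (ratio 0.787, interval 0.774 to 0.801), in 23.2% and 19.8% of thinned cells (32.8% and 29.1% unthinned).

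In the class as a whole the 2 receptors differed least. Trem2 was at 574 and 539 CPM (ratio 0.939, interval 0.924 to 0.953), and 54.0% and 55.0% of thinned cells held it (78.8% and 80.4% unthinned). Mrc1, the mannose receptor CD206, was at 356 and 340 (ratio 0.954, interval 0.935 to 0.973), in 35.7% and 35.6% of thinned cells (64.2% and 65.1% unthinned). For both, the share of cells with a UMI was nearly the same in the libraries.

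Apoe, the lipid carrier apolipoprotein E, was at 4990 and 3680 CPM (ratio 0.737, interval 0.733 to 0.742). It was found in 80.5% of thinned SCR and 82.3% of thinned KO cells (87.7% and 88.9% unthinned), and its positive cells held 12.6 and 9.73 UMIs. For Apoe the amount per positive cell was thus lower in KO while the share of cells was slightly higher, unlike Inhba. Fn1, which encodes fibronectin, was at 134 and 90.8 CPM (ratio 0.676, interval 0.653 to 0.701), in 13.5% and 9.60% of thinned cells (22.6% and 16.6% unthinned). Pdpn, the membrane mucin podoplanin that binds the platelet receptor CLEC-2, was at 95.1 and 44.6 (ratio 0.469, interval 0.447 to 0.492), in 15.6% and 8.46% of thinned cells (32.3% and 18.8% unthinned).

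**Figure D1:**
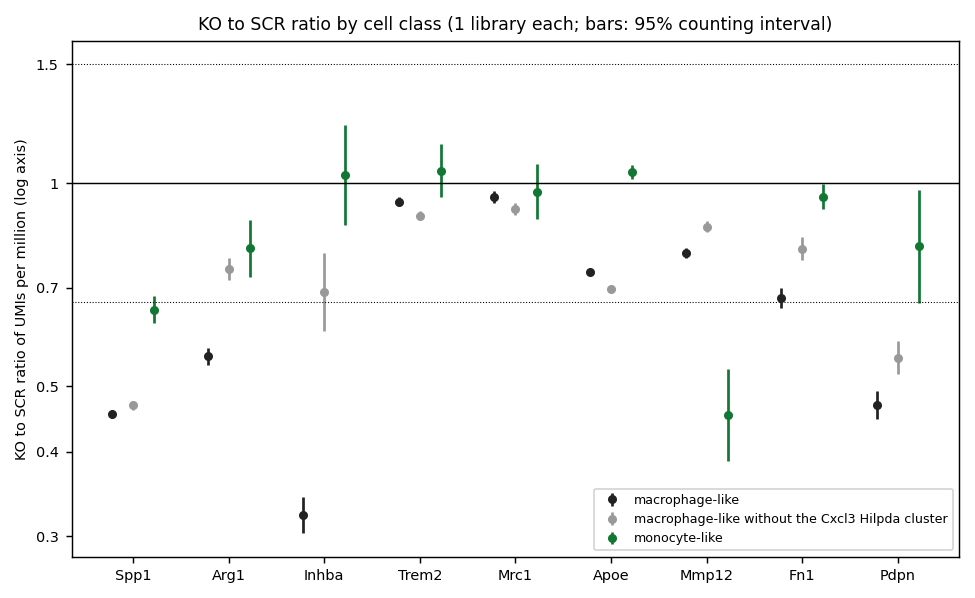
KO to SCR ratio of the CPM of each gene (log axis) in macrophage-like cells, in the same cells without the Cxcl3 Hilpda cluster, and in monocyte-like cells; points are ratios of 1 library each, bars 95% counting intervals, dotted lines 1.5-fold. Inhba is at 0.323 in all macrophage-like cells and 0.691 without that cluster, whereas Spp1 is at 0.455 and 0.469.

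Markers of other cells were also read in the macrophage-like class. The 7 T-cell markers summed to 8.58 CPM in SCR and 8.999 in KO, the 6 neutrophil markers to 26.8 and 28.4, and the 6 melanoma markers to 29.4 and 34.8, with no marker of these lists at 0. The 7 monocyte markers were at 281 and 226, and the 10 macrophage markers at 15085 and 16643. Some lists differed more: the 7 mature dendritic cell markers were at 13.7 and 8.98, the 6 B-cell markers at 22.5 and 31.7, and the 6 markers of type 1 conventional dendritic cells at 331 and 384. The part of such cells in the members' values was not tested. UMIs of the members were also found outside the macrophage-like and monocyte-like classes. In the unnamed Gzma Nkg7 cluster (median 2773.5 UMIs per cell in SCR, 2475 in KO), Spp1 was found in 5.09% and 9.95% of cells, Arg1 in 0.926% and 1.42%, and Apoe in 20.8% and 18.5%. The melanoma-like cells, at medians of 38604 and 35057 UMIs, had a Spp1 UMI in 41.0% and 33.0% of cells, although its level there was only 57.7 and 53.9 CPM. After thinning, 9.38% and 7.65% of them held Spp1, against the 40.3% and 26.3% of macrophage-like cells. T-like cells with Ctla4 and Foxp3 held 593 CPM of Spp1 in SCR and 380 in KO; the part of free RNA or of cells captured together in such values was not tested.

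The members fell into different clusters. Spp1, Arg1 and Inhba were highest in the Cxcl3 Hilpda cluster, a group led, members aside, by Cxcl3, Slfn4, Slpi, Ptgs2, Hilpda and Egln3, of which Hilpda and Egln3 are induced at low oxygen. Its macrophage markers summed to 6515 CPM in SCR and 7256 in KO. That is nearer the monocyte-like class (5291 and 5618) than the whole macrophage-like class (15085 and 16643). Its monocyte markers, at 1168 and 1210, lay between the macrophage-like class (281 and 226) and the monocyte-like class (4012 and 4205). Inhba was at 568 CPM in the Cxcl3 Hilpda cluster in SCR and 310 in KO. The next level of Inhba in SCR was 55.9, in the 36 pDC-like cells (plasmacytoid dendritic cell markers), and the Cxcl3 Hilpda cluster alone held 87.8% of the Inhba UMIs of SCR macrophage-like cells and 72.0% of those of KO. Spp1 was at 3527 and 2653, followed in SCR by the Ccl6 Clec4n cluster at 2170. The neutrophil-like and fibroblast-like cells came next in SCR at 1609 and 1604, which do not differ beyond their intervals. Arg1 was at 999 and 680, followed in both libraries by the Retnla Ear2 cluster, a small group led by the alternative activation gene Retnla, at 650 and 460, and then by the Ccl6 Clec4n cluster at 390 and 277.

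Pdpn was highest in the 19 fibroblast-like cells per library (391 and 313 CPM), where it is a known marker, and then in the Cxcl3 Hilpda cluster (318 and 185). The 2 intervals overlapped in SCR and not in KO. Fn1 was at 2322 and 1398 in fibroblast-like cells and 1690 and 1930 in the Retnla Ear2 cluster. The monocyte-like Hp Ifitm6 cluster, at 728 and 668, came before every other macrophage-like cluster. Of all Fn1 UMIs, 26.8% in SCR and 37.3% in KO came from monocyte-like cells, the largest share among the 9 genes.

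Mmp12 led in the Atp6v0d2 Fabp4 cluster (1756 and 1655 CPM), ahead of the Cxcl3 Hilpda cluster in SCR (1127). Trem2 was highest in the Gas6 Igf1 cluster (886 and 749), which did not differ beyond its interval from the Acp5 Slamf9 cluster (828 and 712). Apoe was highest in the Lyve1 Cd209f cluster, which carries genes of tissue-resident macrophages (12055 and 7467). Mrc1 was at 1265 and 1096 in the unnamed Neat1 Creb5 cluster, whose median was 3252.5 UMIs per cell in SCR, and at 682 and 527 in the Lyve1 Cd209f cluster. The Cxcl3 Hilpda cluster, where Spp1, Arg1 and Inhba led, held Mrc1 at only 127 and 98.3 and Trem2 at 224 and 263.

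**Figure D2:**
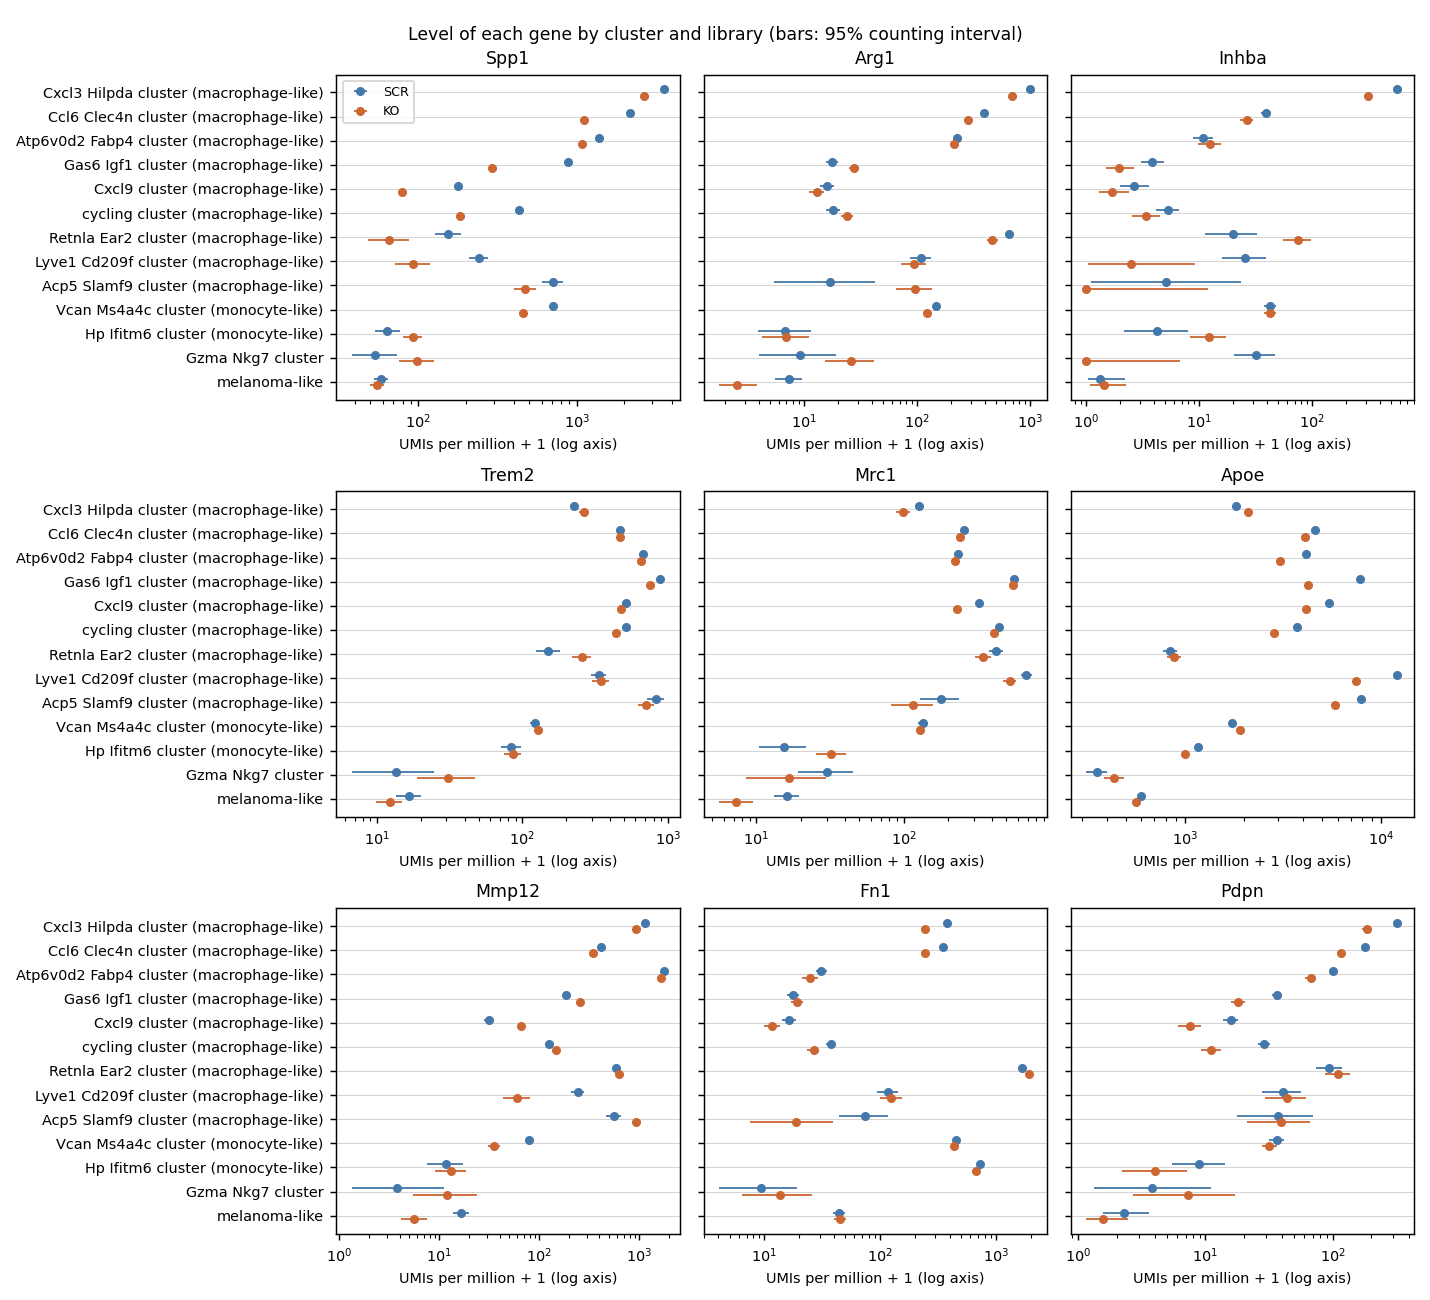
CPM plus 1 (log axis) of each gene in the 9 macrophage-like and 2 monocyte-like clusters, the Gzma Nkg7 cluster and melanoma-like cells; points are the 1 library of each genotype, lines the 95% counting interval. Spp1 lies lower in KO in each of the 9 macrophage-like clusters, and Inhba is concentrated in the Cxcl3 Hilpda cluster (568 in SCR and 310 in KO).

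Spp1 was lower in KO in each of the 9 macrophage-like clusters, with intervals below 1 in all 9 and past the fold in 6. Its ratio was lowest in the Gas6 Igf1 cluster, at 878 CPM in SCR and 291 in KO (0.331, interval 0.319 to 0.343). There 35.0% of thinned SCR and 20.6% of thinned KO cells held it (61.8% and 47.4% unthinned). The highest ratio was in the Atp6v0d2 Fabp4 cluster (0.776), and the cluster richest in Spp1 stood near it (0.752, interval 0.733 to 0.771). Pdpn was past the fold in 6 of the 7 macrophage-like clusters with at least 100 UMIs, from 0.362 in the cycling cluster to 0.662 in the Atp6v0d2 Fabp4 cluster, and was at 1.17 (0.829 to 1.64) in the Retnla Ear2 cluster.

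Arg1 and Inhba were less uniform. Arg1 was below 1 in 6 of 8 clusters, but its interval lay below 1 in only 3 and above 1 in 2. No cluster was past the fold downward: the Cxcl3 Hilpda cluster was at 0.681 (0.648 to 0.715) and the Ccl6 Clec4n cluster at 0.712. In the Gas6 Igf1 cluster, where Arg1 was scarce, it was higher in KO, at 26.6 CPM against 16.6 (ratio 1.60, interval 1.35 to 1.90). Inhba had 100 UMIs in 3 clusters: its ratio was 0.545 (0.507 to 0.585) in the Cxcl3 Hilpda cluster, 0.669 in the Ccl6 Clec4n cluster and 1.16 (0.828 to 1.61) in the Atp6v0d2 Fabp4 cluster.

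Apoe was lower in KO in 7 of 9 clusters, past the fold in the Gas6 Igf1 cluster (7846 and 4230 CPM, ratio 0.539) and the Lyve1 Cd209f cluster (0.619). It was higher in the Cxcl3 Hilpda cluster (1.15, interval 1.11 to 1.18). Within the Gas6 Igf1 cluster Spp1, Pdpn and Apoe were lower past the fold, beside 1.37% of 9693 genes, and Arg1 was higher, beside 0.65%. Mmp12 had no common direction: it ran from 0.244 in the Lyve1 Cd209f cluster to 2.14 in the Cxcl9 cluster, where it was scarce (30.04 and 64.1 CPM). In the Atp6v0d2 Fabp4 cluster, which held 47.2% of its SCR macrophage UMIs, it stood at 0.943 (0.919 to 0.967). Fn1 was past the fold in the Cxcl3 Hilpda cluster only (0.642, interval 0.591 to 0.697), where Inhba and Pdpn were also past it, beside 1.56% of 7350 genes; none was higher, beside 3.99%. In the Ccl6 Clec4n cluster Spp1 (0.511) and Pdpn (0.637) were past it, beside 0.848% of 8725 genes, and none was higher, beside 0.871%. Mrc1 was at or below 0.977 in the 8 clusters with 100 UMIs, with intervals below 1 in 6. It was past the fold in none and lowest in the Cxcl9 cluster (0.704, interval 0.669 to 0.740). Trem2 was past the fold in 1, upward, in the Retnla Ear2 cluster (149 and 255 CPM).

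In monocyte-like cells (1196 SCR and 1527 KO), 2 of the 9 genes were lower past the fold, beside 0.911% of 8347 genes, and none was higher, beside 1.17%. Spp1 was at 555 CPM in SCR and 360 in KO (0.650, interval 0.620 to 0.680), and Mmp12 at 62.3 and 28.3 (0.454, interval 0.388 to 0.530). Inhba (32.3 and 33.2), Trem2 (112 and 117) and Apoe (1607 and 1666) were close between the libraries there, and Arg1 was at 113 and 90.2. The Spp1 of the class lay in the Vcan Ms4a4c cluster (706 and 458); in the Hp Ifitm6 cluster it was at 63.2 and 91.3, close to the level of the Gzma Nkg7 cluster.

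Outside both classes the direction was mixed. In the cluster of T-cell and macrophage genes Spp1 was at 804 CPM in SCR and 792 in KO (0.985, interval 0.942 to 1.03). Inhba (0.594), Mmp12 (0.545) and Pdpn (0.570) were lower there. In B-like cells (116 SCR and 185 KO, median 2344.5 and 2378 UMIs) Spp1 was higher in KO, at 159 and 576 (3.63, interval 2.93 to 4.52), and Mmp12 at 34.8 and 304, whereas Apoe was lower (2932 and 1932). Mature dendritic-like cells had Mmp12 at 49.3 and 208. In cDC2-like cells Spp1 was at 279 and 191 (0.685), and in fibroblast-like cells at 1604 and 800.3. For these cell kinds the share of all genes past the fold is not given here, so the ratios are values only. The part of free RNA or of cells captured together in these values was not tested.

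The make-up of the class also differed. Macrophage-like cells were 63.4% (62.3 to 64.4) of kept cells in SCR and 56.1% (55.0 to 57.2) in KO, and monocyte-like cells 14.5% (13.8 to 15.3) and 18.3% (17.4 to 19.1). The Cxcl3 Hilpda cluster was the largest of the macrophage-like clusters in SCR, with 1126 cells or 13.7% (12.9 to 14.4), and had 536 cells or 6.41% (5.90 to 6.96) in KO, where the Ccl6 Clec4n cluster was the largest with 972. Its median was 5883 UMIs per cell in SCR and 4741 in KO, below that of the libraries as a whole. Since its leading genes Hilpda and Egln3 also differed between the libraries, cells were clustered once more without the 9 genes and without 6 lists of related genes, which include both. The cluster that took most of these cells then held 13.7% of SCR and 6.96% of KO cells. Of its cells, 73.6% in SCR and 61.2% in KO were in the Cxcl3 Hilpda cluster before, so that the match is partial. In the CD45 sort and with 1 library each, a difference in cell share between the tumours and one that arose in dissociation, sorting or capture cannot be told apart.

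**Figure D3:**
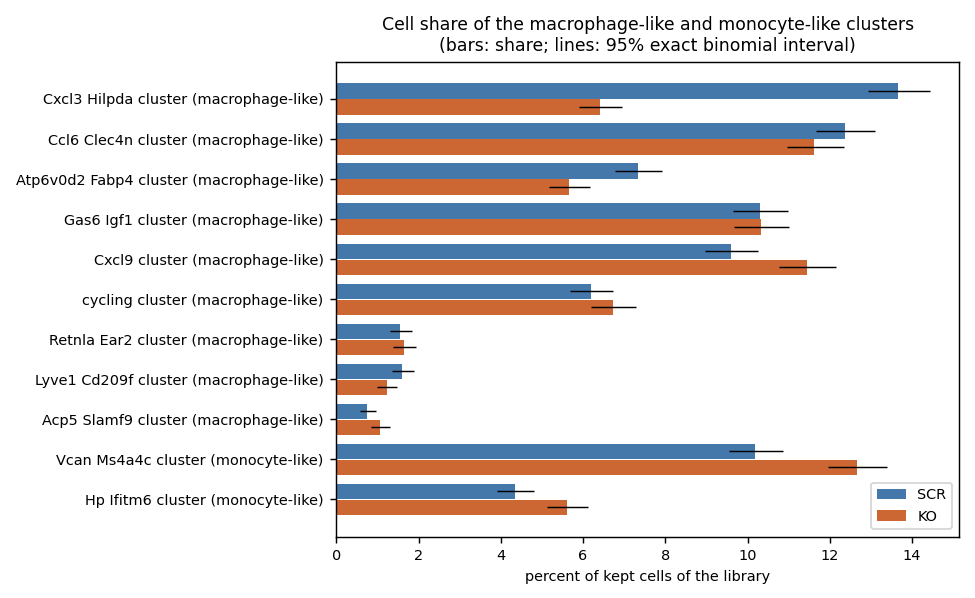
Share of all kept cells in each macrophage-like and monocyte-like cluster, in percent, for SCR and KO (1 library each; lines are 95% exact binomial intervals). The Cxcl3 Hilpda cluster has 13.7% of SCR and 6.41% of KO cells.

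Cell mix and level within clusters were separated by splitting the CPM difference over all kept cells. One part comes from the share of UMIs that each cluster holds, times its mean level in the libraries less the mean level over all cells, and the other from the level within clusters, at the mean share. Since shares are of UMIs and not of cells, the UMIs per cell of a cluster enter the mix part. Over all kept cells Spp1, Arg1, Inhba and Pdpn were lower past the fold, beside 1.72% of 14323 genes, and no member was higher, beside 2.19%. Spp1 was at 983 and 479 CPM, and 31.9% of this difference lay in the mix and 68.1% within clusters. Pdpn divided alike (32.7% and 67.3%). Arg1 (54.9% mix) and Inhba (54.4% mix) divided about evenly. Apoe lay almost wholly within clusters (97.2%), and 48.9% of its whole difference was the lower level in the Gas6 Igf1 cluster. Fn1 (86.8%), Mrc1 (90.3%) and Trem2 (73.2%) also lay mostly within, on small differences. Mmp12 had the largest mix part by cluster, 77.8%.

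The Cxcl3 Hilpda cluster held a large share of the mix part of several genes. For Inhba it was -17.8 of a mix part of -19.0 CPM, for Arg1 -31.1 of -40.4, for Spp1 -106 of -161 and for Pdpn -8.63 of -13.1. For Fn1 its -7.19 exceeded the whole mix part of -3.75, and for Apoe it was 67.2, opposite in sign to the mix part of -30.9. The lower level inside the same cluster gave another -14.8 for Inhba and -50.3 for Spp1. The largest within part of Spp1 was in the Ccl6 Clec4n cluster (-103), followed by the Gas6 Igf1 cluster (-87.9). With the cluster left out of the macrophage-like class, 2 members remained past the fold, Spp1 (0.469) and Pdpn (0.552), beside 0.991% of 12103 genes, and none was higher, beside 1.07%; Arg1 stood at 0.746 (0.718 to 0.774) and Inhba at 0.691 (0.605 to 0.789). The split depends on how finely cells are divided. With whole classes in place of clusters the mix part was 6.27% for Spp1, 6.81% for Arg1, 5.56% for Inhba and 18.3% for Mmp12, below Trem2 (49.4%) and Mrc1 (38.1%). With clusters made without the related lists it was 28.9%, 54.1%, 42.1% and 82.5% for Spp1, Arg1, Inhba and Mmp12. Within macrophage-like cells alone, split by cluster, the mix part was above 0 for Trem2 (18.1 CPM), Mrc1 (20.9) and Apoe (203). Their within parts there were -53.3, -37.4 and -1513, so the 2 parts were opposite in sign. For the other members both parts were below 0 there too.

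**Figure D4:**
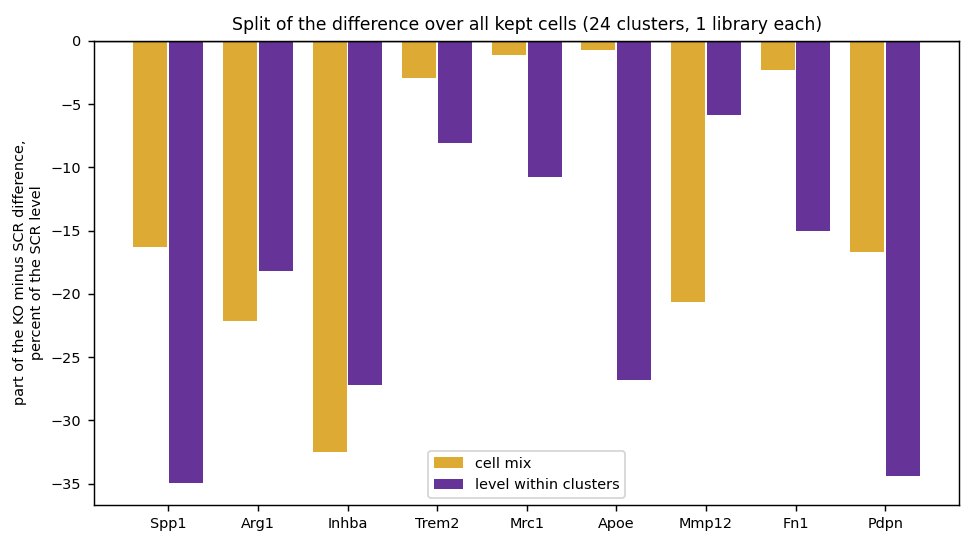
The KO minus SCR difference over all kept cells, split into the part from cell mix and the part from level within the 24 clusters, each as a percent of the SCR level. Over all kept cells both parts are below 0 for each of the 9 genes, and the larger part is cell mix for Arg1, Inhba and Mmp12. Within macrophage-like cells alone (not shown) the mix part of Trem2, Mrc1 and Apoe was above 0.

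Detection of the 4 genes that differed most was joint in single cells. In macrophage-like cells thinned to 2000 UMIs, 28.1% of the 1988 SCR cells with Spp1 also held Arg1, against 11.5% of cells without Spp1; in KO these shares were 21.6% of 1157 cells and 7.26%. Inhba was found in 22.3% of SCR cells with Arg1 and 5.55% of those without. Trem2 was no more frequent in cells with Spp1 (54.5%) than in the rest (53.6%), and in SCR it was less frequent with Arg1 (45.0% against 56.0%) but not in KO (56.5% against 54.8%). None of Spp1, Arg1, Inhba and Pdpn was found in 47.9% (46.5 to 49.3) of SCR and 64.9% (63.4 to 66.3) of KO cells. All 4 were found in 1.72% (1.38 to 2.13) and 0.387% (0.225 to 0.618). These 4 genes were put together because they were lower in KO, so fewer of them per KO cell follows from that choice. A small number of cells carried much of the RNA: the 83 SCR cells richest in Inhba, 1% of the library, held 42.3% of its UMIs, and the 84 richest in KO 58.3%, whereas for Trem2 the same share of cells held 7.81% and 8.00%.

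**Figure D5:**
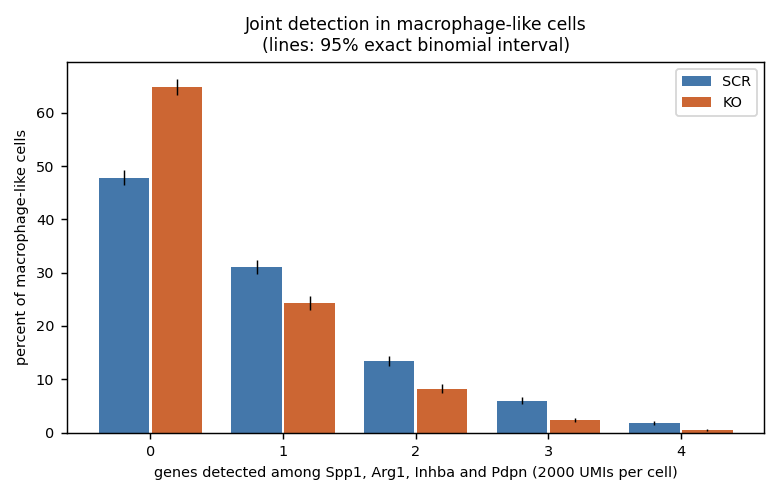
Percent of macrophage-like cells with 0 to 4 of Spp1, Arg1, Inhba and Pdpn detected, each cell thinned to 2000 UMIs (4929 SCR and 4396 KO cells, 1 library each; lines are 95% exact binomial intervals). Cells with none are 47.9% of SCR and 64.9% of KO, and each higher number is less frequent in KO. The 4 genes were taken because they were lower in KO, so the shift to fewer genes follows from that choice.

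Across 40 profiles (a cluster in 1 library, where it had at least 50 cells there), the log2 levels of some members were alike. Pearson's r was 0.81 between Arg1 and Pdpn, 0.80 between Spp1 and Pdpn, 0.74 between Arg1 and Inhba, and 0.88 between Trem2 and Apoe, but 0.03 between Inhba and Trem2. Profiles of 1 library share depth and free RNA, and these values are descriptions. Among 6748 genes, those most like Arg1 were Hilpda (0.86), Egln3 (0.81) and F7 (0.81), and those most like Inhba Cxcl3 (0.84), Hilpda (0.83) and Egln3 (0.82). Clec4d (0.81), Pdpn (0.80) and Il1rn (0.78) were nearest to Spp1, and Igf2bp2 (0.84), Flrt2 (0.84) and F7 (0.83) to Pdpn. The lysosomal genes Ctsb (0.97), Lgmn (0.96) and Grn (0.93) were nearest to Trem2, and Dab2, Tbxas1 and Kcnk13 (0.92 to 0.93) to Mrc1. Rnase4 (0.93), Tmem86a (0.90) and Cd300ld3 (0.90) were nearest to Apoe, Anpep (0.86), Ctsl (0.84) and Adam8 (0.84) to Mmp12, and Thbs1 (0.85), F10 (0.83) and Vcan (0.83) to Fn1.

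In all, 6 lists of related genes were counted in macrophage-like cells, against the same 1.83% of all genes lower and 1.04% higher. The lists, too, were chosen with earlier results of these data known, so the counts are descriptions. Of 18 hypoxia and angiogenesis genes, 9 were lower past the fold and none higher, with a median log2 ratio of -0.58. They included Egln3, an oxygen-sensing prolyl hydroxylase (35.1 and 17.8 CPM, ratio 0.507), Hilpda, a lipid droplet protein (368 and 208, ratio 0.566), the glucose transporter Slc2a1 (174 and 99.1, ratio 0.569) and the MYC antagonist Mxi1 (124 and 75.1, ratio 0.607). Within the Cxcl3 Hilpda cluster 3 of the 18 were lower, with a median of -0.40, beside 1.56% of all genes there and their median of 0.06. Without that cluster 1 was, with a median of -0.28, beside 0.991% of all genes and their median of 0.02.

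Of 14 suppressive mediator genes with enough UMIs, 4 were lower and none higher. Nt5e (3.82 and 2.02 CPM, ratio 0.530) and Ptges (5.01 and 2.68, 0.536) were scarce. The others were Ptgs2 (194 and 107 CPM, 0.549) and Arg2 (27.7 and 16.4, 0.590). Nt5e makes adenosine, Ptges and Ptgs2 make prostaglandin E, and Arg2 is the mitochondrial arginase. None of the 14 was past the fold without the Cxcl3 Hilpda cluster. Of 24 receptors and partners of the members, Timp1, an inhibitor of matrix metalloproteases (0.547), and Slc7a2, an arginine transporter (0.648), were lower and none higher, with a median of 0.00. Of 17 lipid handling and lysosome genes 1 was lower, Atp6v0d2 (0.667). Of 18 alternative activation and resident macrophage genes 1 was higher, Lyve1, at 3.12 and 5.37 CPM. Of 14 interferon-gamma response genes 1 was lower, Nos2 (12.2 and 6.01, ratio 0.494), and the median was 0.09.

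The cultured tumour cells made only some of the members. Pdpn, Inhba, Trem2 and Mmp12 had 0 counts in all 4 libraries of input RNA. Mrc1, with 5 and 4 counts in the control against 0 and 2 in the knockout, was too scarce to test. For Spp1 the SCR libraries gave 2.82 and 3.41 CPM and the KO libraries 0.883 and 1.08. The groups did not overlap, and Spp1 fell by 1.60 on the log2 scale (SE 0.23, adjusted p = 0.00724, edgeR's quasi-likelihood test). For Fn1 the values were 83.2 and 82.3 CPM against 54.3 and 66.8 in KO (log2 fold change -0.39, SE 0.09, edgeR adjusted p = 0.0249). Apoe was at 141 and 144 in SCR and 180 and 158 in KO, higher in both KO libraries (0.31, SE 0.08, edgeR adjusted p = 0.0333). Arg1, at 0.873 and 0.836 against 0.534 and 0.573, did not pass (log2 fold change -0.56, SE 0.32, edgeR adjusted p = 0.285). Thus 2 members fell and 1 rose, beside 7.21% and 9.56% of 20025 genes tested. Without either SCR library, Apoe and Fn1 no longer passed (edgeR adjusted p from 0.0687 to 0.140). The labels do not say that libraries came from separate cultures, so these p-values measure only the spread between libraries.

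In ribosome footprints of the same lines, no member passed edgeR's test, beside 1.78% of 16878 genes that were lower and 0.51% higher. Footprints on Spp1 came to 31.6 and 36.5 CPM in the control and 25.7 and 23.2 in the KO libraries (log2 fold change -0.59, SE 0.10, edgeR adjusted p = 0.0616). Apoe was at 1639 and 1655 against 1441 and 1371 (-0.34, SE 0.08, edgeR adjusted p = 0.0910). At an unadjusted edgeR p under 0.05, Spp1, Apoe and Fn1 were lower. DESeq2 called Spp1 (-0.60, DESeq2 adjusted p = 0.00472) and Apoe (-0.34, DESeq2 adjusted p = 7.13e-08) lower. The share of all genes passing either cut is not given here, so these calls are values only. In the melanoma-like cells of the tumours Spp1 was at 57.7 CPM in SCR and 53.9 in KO and Apoe at 598 and 567. In the Gzma Nkg7 cluster Spp1 was at 52.8 and 97.2 CPM and Apoe at 357 and 437. By CPM, Apoe was thus higher in the melanoma-like cells of both libraries, beyond the counting intervals, and Spp1 was not. The melanoma-like cells are far deeper, so that per cell Spp1 stood the other way. In SCR, 161 melanoma-like cells held 353 Spp1 UMIs, and 216 cells of the Gzma Nkg7 cluster held 38. In KO, 197 melanoma-like cells held 376, and 211 of the Gzma Nkg7 cluster held 62. Which of these UMIs the cells themselves made was not tested.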

How the data were processed

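The authors deposited matrices of UMI counts made with Cell Ranger 8.0.1, per the file headers. For cultured cells the authors deposited expected counts for each gene, all of them whole; STAR 2.7.10a, StringTie 2.1.7 and GRCm39 are named in the submitters' processing notes with no role. Columns named POOL were taken as KO, since the others are named SCR. Single cells were analysed in Python 3.11.15 with scanpy 1.11.5 and leidenalg 0.10.2 (2312 variable genes, 30 components, 20 neighbours, resolution 1, no integration of the libraries). Class names come from marker lists. Scrublet called 0 SCR cells and 1 KO cell, and was treated as not having worked. Cultured cells were fitted with edgeR 4.0.16 (TMM, filtering by expression, Benjamini-Hochberg adjusted p under 0.05) and with DESeq2 1.42.0 as an alternative. In simulated counts edgeR found 99% (input RNA) and 76% (footprints) of genes changed by 1 log2 unit, with 8.72% and 6.91% false calls. The changed genes were drawn only above a floor of mean CPM. Spp1 and Arg1 in input RNA and Mrc1 in footprints lay below that floor, so the recovery does not cover them. Total counts were 38968000 to 48692578 in input RNA and 14555963 to 31301806 in footprints. The other files were not used here. The members and the lists of related genes were chosen with earlier results of these data known. Named genes are all members, up to 4 genes per list by fold past 1.5, and the 3 genes most like each member by Pearson's r of log2(CPM + 10).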

Additional observations from a re-analysis of the deposited data

How the results depend on the processing

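Of the alternative values of the members' ratios in macrophage-like cells, 73 stayed inside the counting interval and 35 moved outside it; none changed direction past the fold. Spp1 ranged from 0.444 to 0.497, Pdpn from 0.457 to 0.552, Arg1 from 0.534 to 0.746 and Inhba from 0.314 to 0.691. The 4 members past the fold became 2 without the Cxcl3 Hilpda cluster, an alternative chosen after seeing the data, as were the clusters made without the related lists, the classes in place of clusters, the mixed cluster left out and the 6% of cells with the highest Scrublet score left out. Scaling by the median gene shifted values by 0.04 on the log2 scale. In the split, 93 alternative values of the members' parts stayed inside the counting interval, 66 moved outside it and 3 reversed: the mix part of Apoe was 16.2 CPM at resolution 2 (main value -30.9), the within part of Mmp12 22.8 at resolution 2 (main value -23.6), and the mix part of Fn1 5.31 by classes (main value -3.75); the cause was not tested.

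In cultured cells, members higher in KO input RNA were 0 and members lower 1 with no filter beyond 1 count, and leaving out 1 library gave 0 to 1 higher and 1 to 2 lower. In footprints 2 members were lower with DESeq2 and 1 with no filter. The share of all genes passing under these alternatives is not given here. Mrc1, at 4 to 13 counts, was at -0.02 in footprints and reversed to 0.74 and 0.55 without replicate 2 of SCR or of KO, within a range of -0.76 to 0.74 over the libraries left out. The replicate numbers were not taken as pairs: deviations of same-numbered libraries correlated at an r of 0.05 in both assays. With a replicate block, 2 members were lower and 1 higher in input RNA (Spp1 -1.60, edgeR adjusted p = 0.00665) and none passed in footprints. The single-cell comparison has 1 library per genotype, so the spread between tumours is not known.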
